A study of Rattus norvegicus with 24 samples.

Results

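The genes described here coat lipid droplets or govern the release of fatty acids from them. They were 10 genes, namely the CIDE family (Cidea, Cideb, Cidec), the perilipins Plin2, Plin3, Plin4 and Plin5, the lipase gene Pnpla2 with its inhibitor gene G0s2, and the lipase gene Lipe. Members were the probe sets that the platform annotation assigns to exactly 1 of these symbols. This gave 10 probe sets for 9 of the 10 genes, of 20917 probe sets in all. Lipe had 2 of them, and Plin3 is not analysed here. All 10 probe sets lay above the filter on dim signal.

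Liver RNA was measured on 1 array per animal in 24 adult F2 females of the Sprague-Dawley strain. The grandfather's food was either chow or high in fat (HFD), and each female in turn was kept for 12 weeks on chow or on an HFD, for which the labels give 42 or 45% of energy from fat. The groups, named after the grandfather's diet and then the female's own, were the chow line on chow (GpatCD-CD, n = 7), the chow line on the HFD (GpatCD-HF, n = 6), the HFD line on chow (GpatHF-CD, n = 6) and the HFD line on the HFD (GpatHF-HF, n = 5). All groups share the strain, the sex and the tissue. The labels give no ages, and tie no female to a litter or a grandfather, so relatives among them would make p-values too small. Array numbers are those of the sample titles. The growth protocol names gonadal fat, whereas every title and tissue label says liver. The 6 measured hepatocyte markers of 7 listed (Alb, Ttr, Tf, Cyp2e1, Hnf4a and Serpina1) all stood at or above the 98.2nd percentile of mean signal.

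Hepatocytes store triglyceride in droplets, whose surface monolayer carries the coat proteins. CIDE proteins gather at contacts between droplets and help lipid pass from the smaller to the larger, and CIDEB also acts in the loading of very-low-density lipoprotein. Perilipins shield the core from lipases. Pnpla2 encodes adipose triglyceride lipase (ATGL), which starts triglyceride breakdown, G0s2 encodes a direct inhibitor of ATGL, and Lipe encodes hormone-sensitive lipase. Fatty livers of rodents often carry more CIDEA, CIDEC and PLIN2 than lean ones.

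The promoters of 4 members are printed here. The level of Cidea differed most between diets, and those of Plin2, Plin5 and G0s2 correlated from animal to animal. That correlation passed adjustment by Pearson r and not by Spearman rho. The promoters are RefSeq sequences of build GRCr8, 250 bases before to 50 after the transcription start, read 5′ to 3′ on the gene's strand. Promoters were found for 9 of the 10 genes (14 windows), Plin3 included and Lipe not. Capitals mark the letters of an E-box (CACGTG) or of the half-site that PPAR receptors bind (AGGTCA), each searched on both strands, so that a match on the other strand reads TGACCT.
Cidea: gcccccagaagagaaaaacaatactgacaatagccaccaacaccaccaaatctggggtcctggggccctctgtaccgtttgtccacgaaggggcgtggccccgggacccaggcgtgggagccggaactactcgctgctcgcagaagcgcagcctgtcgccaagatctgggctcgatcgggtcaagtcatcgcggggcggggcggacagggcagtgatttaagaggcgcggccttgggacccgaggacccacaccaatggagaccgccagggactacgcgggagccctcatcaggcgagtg
Plin2: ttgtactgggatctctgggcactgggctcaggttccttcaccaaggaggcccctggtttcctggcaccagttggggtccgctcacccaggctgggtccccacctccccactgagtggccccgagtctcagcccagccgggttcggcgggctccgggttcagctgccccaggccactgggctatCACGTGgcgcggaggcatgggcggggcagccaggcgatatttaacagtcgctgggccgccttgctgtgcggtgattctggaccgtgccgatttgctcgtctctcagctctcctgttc
Plin5: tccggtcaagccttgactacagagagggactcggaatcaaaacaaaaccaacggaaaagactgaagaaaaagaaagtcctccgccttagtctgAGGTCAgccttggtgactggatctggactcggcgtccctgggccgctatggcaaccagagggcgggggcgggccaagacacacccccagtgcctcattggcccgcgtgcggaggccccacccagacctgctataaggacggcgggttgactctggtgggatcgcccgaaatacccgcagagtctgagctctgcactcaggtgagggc
G0s2: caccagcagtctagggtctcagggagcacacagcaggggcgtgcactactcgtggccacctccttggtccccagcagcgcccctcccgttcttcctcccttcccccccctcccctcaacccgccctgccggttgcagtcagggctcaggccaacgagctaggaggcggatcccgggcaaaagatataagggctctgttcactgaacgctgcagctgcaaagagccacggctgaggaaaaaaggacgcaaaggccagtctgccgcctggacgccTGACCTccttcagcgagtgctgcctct
The windows lie at chr18:63164567-63164866 on the plus strand (Cidea) and, on the minus strand, at chr5:106228969-106229268 (Plin2, the upstream of its 2 starts), chr9:1033235-1033534 (Plin5) and chr13:107335899-107336198 (G0s2). The E-box letters occurred in 1 of the 14 windows, that of Plin2 shown, beginning at base -67, against 6.42% of all 33469 promoter windows. The half-site letters occurred in 2 of the 14 windows, Plin5 at base -157 and G0s2 at base 24 of the transcript, against 16.2% of all windows. The letters TCACNCCAC of a sterol response element occurred in 0 of the 14 windows and in 1.12% of all windows. Several of the 14 windows are of Plin4 and overlap almost wholly, so the 14 are not separate promoters. By gene, the E-box letters occurred in 1 of 9, the half-site letters in 2 of 9 and those of the sterol response element in 0 of 9. Every window with a match is among those printed. The Cidea window held none of these letters. Neither did that of Pnpla2, which is not printed although Pnpla2 correlated with Plin5.

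Values below are log2(intensity + 16), and ± after a level is the SD over animals and after a difference the standard error. The adjusted p-values (limma, two-sided, Benjamini-Hochberg over the 15687 probe sets tested) were held against a threshold of 0.05 for a call. A difference on this scale understates the change of dim probe sets. Levels are not compared between probe sets. The deposited arrays differed in brightness, with medians from 97.9 to 128. The HFD line on the HFD was the dimmest group, with a mean median log2 signal of 7.83 over the tested probe sets against 7.96 in each of the others. Over all probe sets the median own-diet difference was 0.01 in the chow line and -0.09 in the HFD line, and the median grandpaternal difference on the HFD was -0.10. On the second principal component (13.8% of the variance) array 22 of GpatCD-HF, array 24 of GpatHF-HF and arrays 21 and 25 of GpatCD-CD stood apart from the other 20, so results that rest on them are given without them as well.

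Own diet was the first comparison, HFD minus chow within each line, which asks how the diet changed these genes. In both lines Cidea fell on the HFD. No other member was called. Cidea was 1.91-fold lower in the chow line and 2.50-fold lower in the HFD line, while the differences of its paralogs Cideb and Cidec lay between -0.17 and 0.07 on the log2 scale. In the chow line 1 of the 10 member probe sets was called, against 0.319% of all probe sets. In the HFD line it was again 1 of 10, against 0.752%.

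Cidea encodes a droplet protein best known from brown fat that is also found in fatty liver. In the chow line on chow its level ranged from 8.60 to 10.24 with a median of 9.28. In the chow line on the HFD it ranged from 7.87 to 8.93 with a median of 8.42. All 6 HFD animals were below the chow mean, and the groups overlapped through chow arrays 26 (8.60) and 27 (8.90). The mean went from 9.35 ± 0.55 (SD, n = 7) to 8.41 ± 0.35 (n = 6), a difference of -0.94 ± 0.21 (95% interval -1.37 to -0.50, adjusted p = 0.0438 by limma). This call is close to the threshold. It was lost with no filter on dim signal (adjusted p = 0.0504), without arrays 21, 22, 24 and 25 (-0.79, adjusted p = 0.186), and when any 1 of 15 arrays was left out (21, 22, 25, 28, 29, 30, 32, 33, 34, 35, 39, 40, 44, 45 or 46; with the highest adjusted p, 0.147, without array 33). Over all 24 arrays left out in turn the difference ran from -1.06 to -0.79. Arrays 39, 40, 44, 45 and 46 are not in the chow line and bear only on the shared estimate of spread and on the adjustment.

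In the HFD line the chow animals had Cidea levels from 8.77 to 9.64 with a median of 9.41. The 5 HFD animals were at 7.74, 7.81, 7.84, 7.98 and 8.52. The groups did not overlap, a pattern that 2.71% of all tested probe sets showed in this direction. The mean went from 9.30 ± 0.36 (SD, n = 6) to 7.98 ± 0.32 (n = 5), a difference of -1.32 ± 0.23 (95% interval -1.79 to -0.85, adjusted p = 0.00397). It was still called without arrays 21, 22, 24 and 25 (-1.26, adjusted p = 0.0122) and after leaving out each of the 24 arrays in turn (-1.46 to -1.25). In deposited units the mean intensity of Cidea was 630.4 on chow and 241.9 on the HFD in this line, and 678.5 and 333.4 in the chow line.

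With both lines averaged, the difference of Cidea was -1.13 ± 0.16 (adjusted p = 5.96e-05), in a comparison that called 1.99% of all probe sets. The order of the group means from high to low was chow line on chow (9.35), HFD line on chow (9.30), chow line on the HFD (8.41) and HFD line on the HFD (7.98). The first pair differed by less than either SD. The last pair differed by -0.43 ± 0.23 (HFD line minus chow line) with an adjusted p of 0.463. The size of the own-diet difference was not shown to depend on the line (interaction -0.38 ± 0.31, adjusted p = 0.675).

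**Figure D1:**
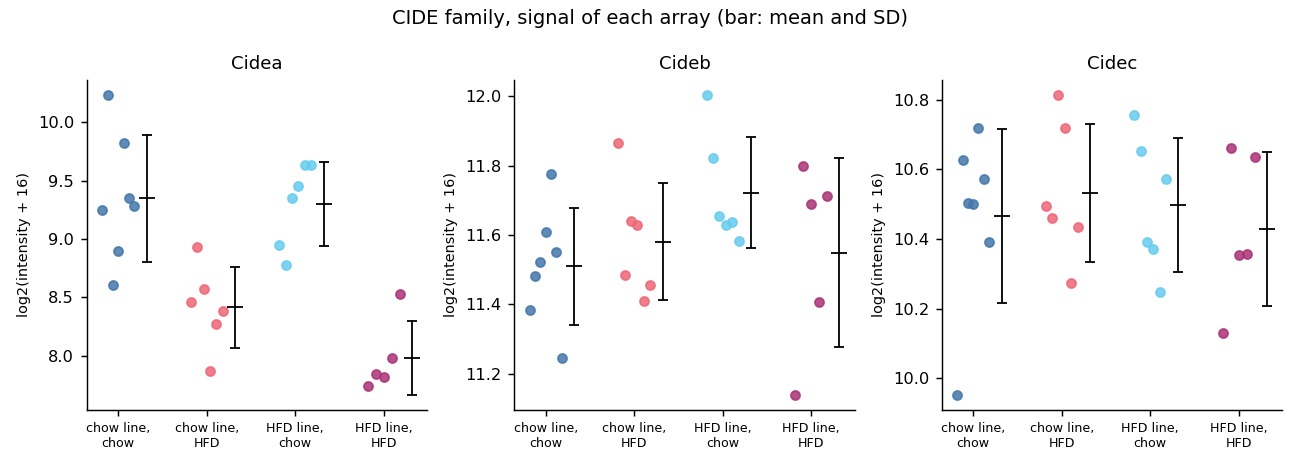
Signal of the CIDE family as log2(intensity + 16) on the vertical axis, with 1 point per animal in the 4 groups on the horizontal axis and a bar for the mean and SD of each group. Cidea is lower in both HFD groups and separates completely from chow in the HFD line, while the 4 groups of Cideb and of Cidec overlap.

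Cideb, the CIDE gene of very-low-density lipoprotein loading, lay between 11.24 and 11.78 in the chow line on chow, with a median of 11.52. The HFD animals of that line lay between 11.41 and 11.87, with a median of 11.56. For the HFD line the range was 11.58 to 12.01 on chow, and the 5 HFD animals were at 11.14, 11.41, 11.69, 11.71 and 11.80. The groups overlapped in both lines. The own-diet differences were 0.07 ± 0.10 (95% interval -0.14 to 0.28, adjusted p = 0.928) and -0.17 ± 0.11 (-0.40 to 0.06, adjusted p = 0.446).

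Cidec, also called FSP27, makes large droplets in fat cells and steatotic liver. Its chow-line levels ran from 9.95 to 10.72 on chow and from 10.27 to 10.82 on the HFD. Those of the HFD line ran from 10.25 to 10.76 on chow, and the 5 HFD animals were at 10.13, 10.36, 10.36, 10.64 and 10.66. The own-diet differences were 0.07 ± 0.12 (95% interval -0.18 to 0.31, adjusted p = 0.948) and -0.07 ± 0.13 (-0.33 to 0.19, adjusted p = 0.807). The second of these was 0.05 after centring each array on its median and 0.08 after quantile normalization.

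Whether Cidea changed by another amount than its paralogs was tested within arrays, since a difference of 2 probe sets on 1 array does not depend on that array's brightness. The log2 difference of Cidea from Cidec averaged -1.12 ± 0.52 on chow and -2.12 ± 0.43 on the HFD in the chow line, where 6 of 6 HFD animals lay below the chow mean (exact two-sided permutation p = 0.00408, adjusted p = 0.00974 over the 6 tests of this kind). HFD-line animals gave an HFD minus chow difference of -1.25, with 5 of 5 animals below the chow mean (exact permutation p = 0.00649, adjusted p = 0.00974). Against Cideb the values were -1.01 (exact permutation p = 0.00466) and -1.15 (exact permutation p = 0.00649), both with an adjusted p of 0.00974. The smallest p these designs allow is 0.000583 in the chow line and 0.00216 in the HFD line. Without arrays 21, 22, 24 and 25 the chow-line value against Cideb was -0.77 with an adjusted permutation p of 0.0595, while the other 3 of these values stayed under 0.05. The difference of Cidea from either paralog was chosen for testing with the fall of Cidea known.

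The 5 probe sets whose signal was most like that of Cidea, over 24 arrays and among 13822 other single-gene probe sets, belonged to Car12 (Pearson r = 0.832), Sgpp1 (0.815), Cyp51 (0.810), Idi1 (0.802) and Papss1 (0.797). These values describe the arrays and carry no p. The animals of a group share a diet, and with the group means removed r was 0.472 for Car12, 0.574 for Sgpp1, 0.339 for Cyp51, 0.268 for Idi1 and 0.602 for Papss1. Car12 (carbonic anhydrase 12), Cyp51 (lanosterol demethylase of cholesterol synthesis) and Idi1 (isopentenyl diphosphate isomerase) were called lower on the HFD in both lines. Their differences in the chow and the HFD line were -1.61 and -1.54 for Car12, -1.07 and -1.19 for Cyp51, and -1.92 and -2.17 for Idi1. Sgpp1 (sphingosine-1-phosphate phosphatase 1) and Papss1 (sulfate donor synthesis) were not called in either line, at -0.27 and -0.49 and at -0.35 and -0.36.

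The perilipins gave no call in either line. Plin2, which coats droplets in most cells and is the main perilipin of hepatocytes, ranged from 10.96 to 12.18 (median 11.45) in the chow line on chow and from 11.09 to 11.81 (median 11.55) on the HFD. HFD-line animals ranged from 10.78 to 12.28 (median 11.63) on chow, and the 5 HFD animals were at 10.70, 10.76, 11.15, 11.41 and 11.41. Arrays 28 (chow line, chow) and 37 (HFD line, chow) were the highest of their groups. The own-diet differences were 0.13 ± 0.20 (95% interval -0.27 to 0.54, adjusted p = 0.931) in the chow line and -0.47 ± 0.21 (-0.91 to -0.03, adjusted p = 0.288) in the HFD line. All 5 HFD animals of the HFD line lay below its chow mean, and 5 of 6 in the chow line lay above theirs.

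Plin5, which ties droplets to mitochondria in oxidative tissues, ranged from 6.50 to 7.48 on chow and from 6.84 to 7.38 on the HFD in the chow line. HFD-line animals ranged from 6.93 to 7.86 on chow, with array 37 at the top, and the 5 HFD animals were at 6.56, 6.73, 6.91, 7.07 and 7.31. The differences were 0.22 ± 0.15 (95% interval -0.09 to 0.53, adjusted p = 0.749) and -0.34 ± 0.16 (-0.67 to 0.00, adjusted p = 0.313). As with Plin2, the value was above 0 in the chow line and below 0 in the HFD line.

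That contrast between the lines was tested as an interaction. For Plin5 it was -0.56 ± 0.22 (unadjusted p = 0.0182, adjusted p = 0.437 by limma), for Plin2 -0.60 ± 0.29 (unadjusted p = 0.0482, adjusted p = 0.510) and for Pnpla2 -0.45 ± 0.20 (unadjusted p = 0.0337, adjusted p = 0.470). The interaction called 0 of the 10 members at the adjusted threshold, against 0% of all probe sets, and 3 of 10 were below 0 with an unadjusted p under 0.05, against 8.22% of all. After centring the arrays this count was 1 of 10 (Plin5), against 2.97% of all, and after quantile normalization also 1 of 10 (Plin5), against 3.63%. Over all probe sets the interaction called 57 without array 28 and 48 without array 22, and 0 without any other single array, while 0 of the 10 members were called in each case. The median interaction was -0.27 over the members and -0.10 over all tested probe sets.

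Plin4, an adipocyte perilipin of small droplets, stayed between 6.46 and 7.01 over all 24 animals. Its differences were 0.01 ± 0.10 (95% interval -0.19 to 0.20) in the chow line and 0.04 ± 0.10 (-0.17 to 0.26) in the HFD line. Plin4 stood at the 46.3rd percentile of mean signal and Plin5 at the 50.7th, so their differences are more compressed by the offset than those of Plin2.

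**Figure D2:**
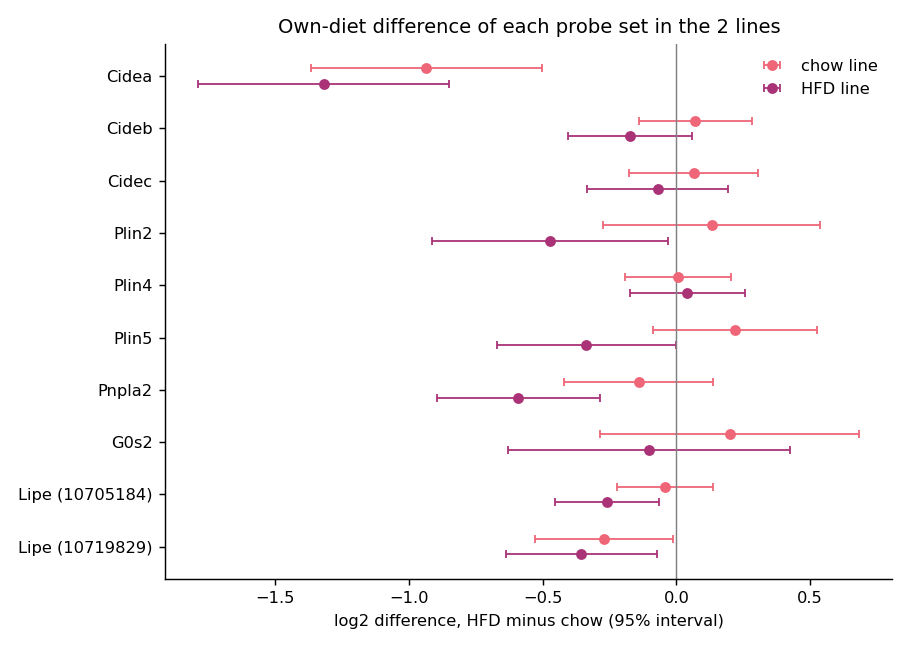
Own-diet difference (HFD minus chow, log2 units, horizontal axis) of each member probe set, with its 95% interval, in the chow line and the HFD line. The intervals of Cidea end at -0.50 and -0.85, those of Cideb, Cidec, Plin4 and G0s2 span 0 in both lines, and Pnpla2 lies at -0.14 and -0.59.

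Among the lipolysis genes, Pnpla2 (ATGL) came closest to a call. In the chow line it ranged from 10.09 to 10.67 (median 10.26) on chow and from 9.80 to 10.61 (median 10.15) on the HFD. The range in the HFD line was 10.07 to 10.77 (median 10.55) on chow, and the 5 HFD animals were at 9.64, 9.72, 9.77, 10.11 and 10.12. The groups met only at the edge, since chow array 39 (10.07) lay below HFD arrays 44 and 45. The difference was -0.59 ± 0.15 (95% interval -0.90 to -0.29) in the HFD line with an adjusted p of 0.0563, which does not pass, and all 5 HFD animals were below the chow mean. For the chow line it was -0.14 ± 0.14 (-0.42 to 0.14, adjusted p = 0.854).

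The HFD-line value of Pnpla2 stood on the threshold. It passed with the dimmer 50% of probe sets left out (adjusted p = 0.0457) and when array 28, 32, 39 or 41 was left out (adjusted p = 0.046, 0.0413, 0.0289 and 0.0417). Arrays 28 and 32 are not in the HFD line and bear only on the shared estimate of spread and on the adjustment. Over all 24 arrays left out in turn the adjusted p ran from 0.0289 to 0.171. The HFD-line value moved away from the threshold after centring the arrays (-0.47, adjusted p = 0.140), after quantile normalization (-0.44, adjusted p = 0.153) and without arrays 21, 22, 24 and 25 (-0.53, adjusted p = 0.150). Averaged over both lines Pnpla2 differed by -0.37 ± 0.10 (adjusted p = 0.0551), which passed with the dimmer 50% of probe sets left out (adjusted p = 0.0495) and when array 32, 39 or 41 was left out (adjusted p = 0.0214, 0.0276 and 0.0381). Over all 24 arrays left out in turn the adjusted p of the average ran from 0.0214 to 0.112. That average was -0.31 after centring (adjusted p = 0.0926) and -0.30 after quantile normalization (adjusted p = 0.0805).

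G0s2, the ATGL inhibitor, varied more between animals of a group than 97.3% of tested probe sets (SD within groups 0.47). It ranged from 9.37 to 10.69 on chow and from 9.63 to 10.63 on the HFD in the chow line. The range in the HFD line was 9.23 to 10.74 on chow, with array 37 at the top, and the 5 HFD animals were at 9.21, 9.50, 9.51, 9.98 and 10.13. The own-diet differences were 0.20 ± 0.24 (95% interval -0.29 to 0.68) and -0.10 ± 0.26 (-0.63 to 0.42), with adjusted p-values of 0.897 and 0.864. The second was 0.02 after centring and 0.04 after quantile normalization.

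The lipase and its inhibitor were also compared within arrays. The log2 difference of Pnpla2 from G0s2 averaged 0.70 ± 0.46 on chow (n = 6) and 0.21 ± 0.16 on the HFD (n = 5) in the HFD line, a change of -0.49 (exact two-sided permutation p = 0.0541, adjusted p = 0.0649). The chow line gave an HFD minus chow difference of -0.34 (exact permutation p = 0.249, adjusted p = 0.249). Neither passed. Without array 37 the HFD-line value was -0.63 with an adjusted permutation p of 0.00952. This was the only 1 of the 11 arrays of that line whose removal made it pass. Over these 11 left out in turn the value ran from -0.63 to -0.35, with an adjusted permutation p of up to 0.131.

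Lipe was read by 2 probe sets. The brighter one (10719829) ranged from 7.37 to 8.17 (median 7.94) on chow and from 7.33 to 7.81 (median 7.59) on the HFD in the chow line. The HFD line ranged from 7.50 to 8.14 (median 8.02) on chow, and the 5 HFD animals were at 7.38, 7.53, 7.56, 7.70 and 7.76. All 6 and all 5 HFD animals lay below the chow mean of their line, and the groups overlapped through chow arrays 21 (7.37) and 30 (7.53) in the chow line and 39 (7.50) in the HFD line. The differences were -0.27 ± 0.13 (adjusted p = 0.542) and -0.36 ± 0.14 (adjusted p = 0.212), and -0.31 ± 0.09 averaged over the lines (adjusted p = 0.0821).

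The average difference of this Lipe probe set passed when array 21, 30 or 39 was left out (adjusted p = 0.0207, 0.0402 and 0.0315). Over all 24 arrays left out in turn its adjusted p ran from 0.0207 to 0.148. The dimmer probe set (10705184, 37.3rd percentile of mean signal) stayed between 5.88 and 6.65 over all animals. It was at -0.04 ± 0.09 in the chow line and -0.26 ± 0.09 in the HFD line (adjusted p = 0.957 and 0.185), so the probe sets had the same sign and unlike sizes. They did not track each other between animals of a group. With each array centred on its median and the group means removed, Pearson r was -0.139 over the 24 animals (permutation p = 0.603, within groups).

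**Figure D3:**
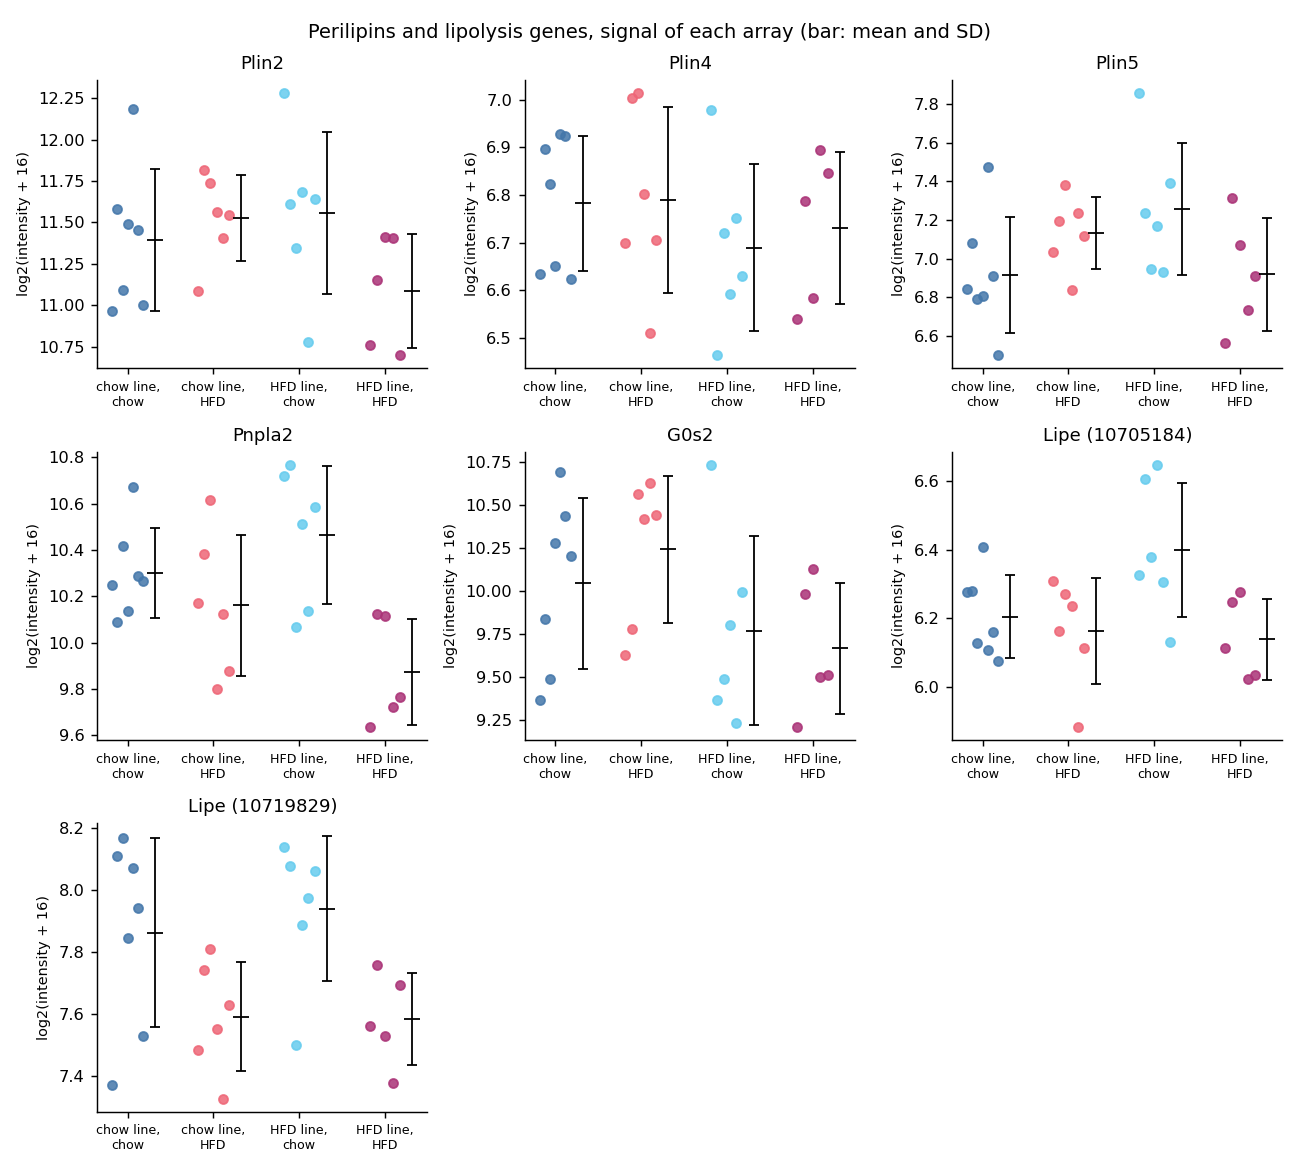
Signal of Plin2, Plin4, Plin5, Pnpla2, G0s2 and both Lipe probe sets as log2(intensity + 16) on the vertical axis, 1 point per animal by group, with a bar for mean and SD. Pnpla2 is lowest in the HFD line on the HFD (mean 9.87), and array 37 is the highest point of the HFD line on chow for Plin2, Plin5 and G0s2.

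At an unadjusted p under 0.05, 6 of the 10 member probe sets were lower on the HFD in the HFD line (Cidea, Plin2, Plin5, Pnpla2 and both of Lipe), against 13.4% of all probe sets, and 2 of 10 in the chow line (Cidea and the brighter Lipe), against 4.12%. On the average of both lines it was 4 of 10 (Cidea, Pnpla2 and both of Lipe), against 10.6%. After centring the arrays the HFD-line count was 3 of 10 (Cidea, Pnpla2 and the brighter Lipe), against 4.54%, and after quantile normalization 4 of 10 (Cidea, Pnpla2 and both of Lipe), against 6.35%. With centring the HFD-line differences were -0.35 for Plin2, -0.22 for Plin5, -0.14 for the dimmer Lipe and -0.23 for the brighter Lipe. The median difference of the 10 probe sets was -0.30 in the HFD line, where all tested probe sets had -0.09 (-0.18 against 0.04 after centring), and 0.04 in the chow line, where all had 0.01.

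The grandfather's diet was the second comparison, as the HFD line minus the chow line, made separately on chow and on the HFD. The comparison on chow shares its GpatCD-CD arrays with the own-diet comparison of the chow line, and the one on the HFD shares GpatHF-HF with that of the HFD line. By limma 0 of the 10 member probe sets were called on chow, on the HFD or on average, and 0% of all probe sets were called in each. On chow, 3 of 10 had an unadjusted p under 0.05 and were higher in the HFD line, against 3.88% of all. They were Plin5 (0.34 ± 0.15, adjusted p = 0.515), Cideb (0.21 ± 0.10, adjusted p = 0.543) and the dimmer Lipe probe set (0.19 ± 0.09, adjusted p = 0.515). On the HFD, G0s2 alone did, at -0.58 ± 0.26 (adjusted p = 0.441), against 10.6% of all in the lower direction. After centring the arrays 0 of 10 members were lower at that level there, against 1.63% of all.

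G0s2 was also the member with the smallest p in the average over both own diets (-0.43 ± 0.17, unadjusted p = 0.0217, adjusted p = 0.379). Cidea was at -0.05 ± 0.21 on chow and -0.43 ± 0.23 on the HFD. On the HFD all 10 member probe sets were below 0, as were 81.0% of all tested probe sets. After centring the arrays, Cideb, Cidec, Plin4 and both Lipe probe sets were above 0 there.

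Animals of the same group differed in several members together. After centring each array and removing the group means, Plin2 and Plin5 correlated over the 24 animals at Pearson r = 0.655 (permutation p = 0.00316, within groups) and Spearman rho = 0.631 (permutation p = 0.00415). The value for Plin2 and G0s2 was r = 0.664 (permutation p = 0.00113; rho = 0.562, permutation p = 0.00712). For Plin5 and Pnpla2 it was r = 0.654 (permutation p = 0.0021; rho = 0.637, permutation p = 0.00264), and for Plin5 and G0s2 r = 0.610 (permutation p = 0.00376; rho = 0.567, permutation p = 0.00686).

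Over the 45 pairs of member probe sets these 4 had an adjusted p of 0.0423 by Pearson and 0.0801 by Spearman. The other pairs had an adjusted p of 0.168 or more by Pearson. How often other pairs of probe sets on the array correlate as strongly was not tested, so these values are not shown to be particular to the members. With the 2 animals farthest from the median of the first gene left out, r was 0.543 for Plin2 with Plin5, 0.565 for Plin2 with G0s2, 0.653 for Plin5 with Pnpla2 and 0.497 for Plin5 with G0s2. Without arrays 21, 22, 24 and 25 the 4 values were 0.675, 0.622, 0.686 and 0.681. Arrays 28 and 37 were the highest of their groups for 7 of the 10 member probe sets each, and for 3 and 5 of them after centring. Without these 2 arrays r was 0.505 for Plin2 with Plin5, 0.557 for Plin2 with G0s2, 0.672 for Plin5 with Pnpla2 and 0.474 for Plin5 with G0s2. Cidea was in none of these pairs.

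**Figure D4:**
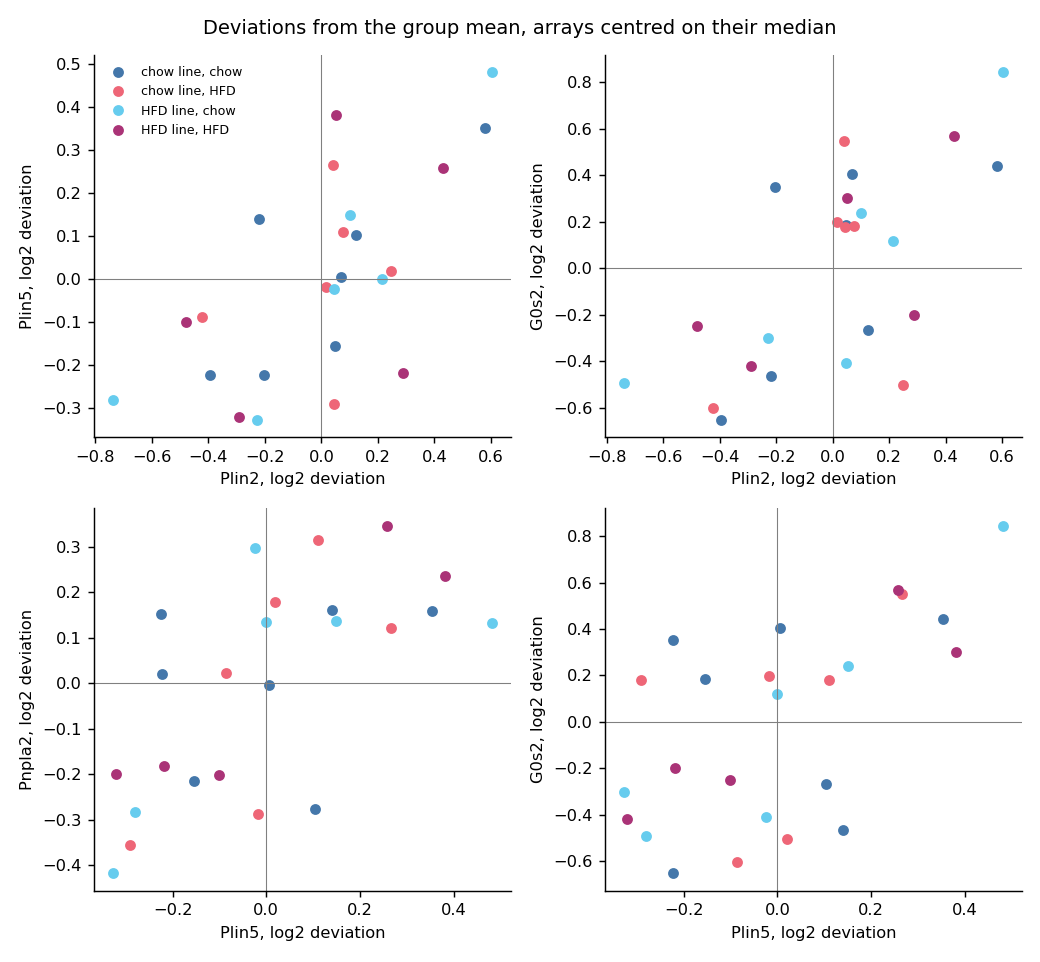
Deviation of each animal from its group mean after centring each array on its median, in log2 units, for the pairs Plin2 with Plin5, Plin2 with G0s2, Plin5 with Pnpla2 and Plin5 with G0s2 (1 point per animal, coloured by group). Points rise from lower left to upper right in each panel, with Pearson r of 0.655, 0.664, 0.654 and 0.610.

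Other genes of droplet formation and lipolysis were taken from a list of 25, of which 20 were measured and tested. In own diet 0 of 20 were called in the chow line, in the HFD line or on average. At an unadjusted p under 0.05, 2 were higher and 1 lower in the chow line, 2 were higher and 5 lower in the HFD line, and 2 were higher and 4 lower on average. Of all probe sets 4.12%, 13.4% and 10.6% were lower at that level in the chow line, in the HFD line and on average. The shares that were higher are not given here, so the counts of higher genes have no background to be judged against. By grandpaternal diet and in the interaction 0 of 20 were called, with unadjusted counts of 0 lower on chow, 4 lower on the HFD and 3 lower in the interaction. Of all probe sets 5.27%, 10.6% and 8.22% were lower at that level in these 3 comparisons. The smallest p in the chow line were those of Dgat2, the last enzyme of triglyceride synthesis (0.21 ± 0.08, adjusted p = 0.404), Acsl3, an acyl-CoA synthetase of growing droplets (-0.51 ± 0.19, adjusted p = 0.405), and Lipc, hepatic lipase (0.14 ± 0.06, adjusted p = 0.528). In the HFD line they were those of Pnpla3, a droplet lipase relative of ATGL (2.18 ± 0.71, adjusted p = 0.139), Bscl2, the droplet-assembly protein seipin (-0.37 ± 0.12, adjusted p = 0.148), and Fitm2 (-0.38 ± 0.15, adjusted p = 0.207). Averaged over the lines they were Dgat2 (0.21 ± 0.06, adjusted p = 0.057), Acsl3 (-0.46 ± 0.14, adjusted p = 0.0858) and Pnpla3 (1.48 ± 0.48, adjusted p = 0.119).

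The ATGL coactivator Abhd5 was at -0.07 ± 0.11 and -0.18 ± 0.12, and monoglyceride lipase (Mgll) at -0.06 ± 0.11 and -0.17 ± 0.12, in the chow and the HFD line, with adjusted p-values of 0.936 and 0.456 for Abhd5 and of 0.949 and 0.504 for Mgll. Both were chosen after their values were seen, as partners of ATGL in the lipolytic chain. The median of the list was 0.04 in the chow line and -0.16 in the HFD line.

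Of 15 listed regulators of droplet genes, 12 were tested. Averaged over the lines 3 of 12 fell on the HFD, against 1.99% of all probe sets called. They were Pparg, the fat-cell nuclear receptor that drives Cidea, Cidec and Plin genes (-0.63 ± 0.14, adjusted p = 0.0158), Srebf2, the sterol-regulated transcription factor (-0.47 ± 0.10, adjusted p = 0.0114), and Insig1, which retains SREBP in the endoplasmic reticulum (-0.44 ± 0.10, adjusted p = 0.0209). Within single lines limma called 0 of 12, while 3 in the chow line and 5 in the HFD line were lower at an unadjusted p under 0.05 (against 4.12% and 13.4% of all). Pparg was at -0.69 ± 0.19 in the chow line and -0.57 ± 0.21 in the HFD line, and Srebf2 at -0.46 ± 0.14 and -0.49 ± 0.15. The signal of Pparg was dim, at the 37.3rd percentile of mean signal with intensities from 27.8 to 138, and its part in the level of Cidea was not tested. The call of Insig1 was lost without array 44 (-0.40, adjusted p = 0.0509). The median of the 12 was -0.05, against -0.03 over all probe sets.

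In whole liver, fewer cells of a type and less RNA per cell cannot be told apart. Cidea, Lipe and Plin4 are also adipocyte genes, so markers of other cells are given beside their values. Of 8 adipocyte markers 7 were measured. Their summed intensity ranged from 340.7 to 505.1 in the chow line on chow, from 351.1 to 620.0 on the HFD, from 338.1 to 431.8 in the HFD line on chow and from 365.3 to 504.7 on the HFD. Adipoq, Lep and Aqp7 stood at the 34.2nd, 26.6th and 19.5th percentile of mean signal. On average 1 of the 6 tested was called, against 1.99% of all probe sets. Adipoq, Plin1, Lep, Cfd and Retn were at 0.10, 0.10, 0.07, -0.05 and 0.03 and were not called. Fabp4, at the 32nd percentile of mean signal, rose (0.62 ± 0.16, adjusted p = 0.0412). This call was lost with an offset of 50 (adjusted p = 0.0517) and when any of 17 of the 24 arrays was left out. Of 4 brown-fat markers, Ucp1, Dio2 and Elovl3 lay among the dimmest 25% of probe sets, and Cox8b alone was tested. Cox8b, a subunit of cytochrome oxidase, was at -0.31 ± 0.08 in the chow line (adjusted p = 0.0974), -0.10 ± 0.08 in the HFD line (adjusted p = 0.552) and -0.21 ± 0.06 on average (adjusted p = 0.0585), and was not called. The summed intensity of the 4 ranged from 127.3 to 155.0 on chow and from 107.6 to 135.6 on the HFD in the chow line, and from 124.9 to 145.0 and from 104.0 to 140.4 in the HFD line.

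All 7 Kupffer cell markers listed were measured, and all 7 had own-diet differences below 0 in both lines. Their median was -0.65 in the chow line and -0.33 in the HFD line, against 0.01 and -0.09 over all probe sets. In each line 1 of the 7, Marco, was called (-1.30, adjusted p = 0.0028, and -1.03, adjusted p = 0.0361). Of all probe sets 0.319% and 0.752% were called in these comparisons. The HFD-line call of Marco was lost after centring (adjusted p = 0.0832), without arrays 21, 22, 24 and 25 (adjusted p = 0.0761) and when any of 6 arrays was left out. The summed intensity of the 7 ranged from 3638 to 6484 on chow and from 2172 to 3849 on the HFD in the chow line, and from 3146 to 5572 and from 2671 to 4382 in the HFD line. On average 3 of the 7 fell, against 1.99% of all probe sets called, namely Marco (-1.16 ± 0.16, adjusted p = 6.93e-05), Cd5l (-0.70 ± 0.14, adjusted p = 0.00731) and Vsig4 (-0.55 ± 0.14, adjusted p = 0.0393). The call of Vsig4 was lost when any of 16 arrays was left out. Stellate cell markers (7 of 7 measured) summed to 1892 to 3709 on chow and 2289 to 3370 on the HFD in the chow line, and to 2138 to 2626 and 1966 to 3276 in the HFD line, and 1 of them, Rgs5, rose on average (0.57 ± 0.15, adjusted p = 0.039), a call lost when any of 12 arrays was left out. Acinar markers of the pancreas (6 of 7 measured, Prss1 and Pnlip among the dimmest 25%) summed to 2247 to 8258 on chow and 1471 to 4109 on the HFD in the chow line. In the HFD line the sums were 2617 to 5320 and 298 to 3693. Cpa1 fell on average (-1.43 ± 0.35, adjusted p = 0.0263), a call lost without array 42 or array 24 (adjusted p of up to 0.0558). Cpa1 ranged from 124 to 8083 in intensity over all animals and no other acinar marker exceeded 72.0, so the sums mostly follow Cpa1. Ctrb1, Cel and Cela1 were at 0.08 ± 0.05, -0.07 ± 0.06 and -0.03 ± 0.06 on average, and none was called. The hepatocyte markers summed to between 42838 and 55365 over all animals, with none called by limma. Their median own-diet difference was 0.18 in the chow line, against 0.01 over all probe sets. For the HFD line it was -0.06, against -0.09 over all probe sets. The part of these cell types in the result for Cidea was not tested.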

How the data were processed

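For 24 liver RNA samples on Affymetrix whole-transcript arrays the authors deposited a linear intensity for each probe set. The submitters' processing notes name Affymetrix Expression Console and PLIER as tools. Their versions and settings were not given in the sources used here. Arrays were not on a common distribution, and dim or brighter arrays shift all probe sets together. The number of arrays limits the precision, and the limma p-values weigh a difference against the spread between these samples.

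On the deposited values, log2(intensity + 16) was taken without further normalization, the dimmest 25% of 20917 probe sets were left out, and 15687 were fitted with 4 group means in limma 3.58.1 (R 4.3.3; lmFit, contrasts.fit, eBayes with trend). The fit recovered 97.2% and 96.5% of 200 simulated log2 falls of 1 among 15687 probe sets in the chow-line and HFD-line comparisons, and 65.8% and 59.0% of falls of 0.5. The simulated noise was normal and independent between probe sets and arrays, and the falls were set in both lines. It held no differences in array brightness and no arrays that stood apart, so recovery in the real data may be lower. Probe sets were named by the platform annotation with symbols updated by Entrez identifier (18052 of 18197 single-gene probe sets matched); a listed gene was read on its brightest probe set. Within-array pairs used exact permutation, and correlations 100000 permutations within groups.

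Members, lists and tests were chosen with earlier results of these data known. All members were named. Of the lists, genes past the threshold were named, otherwise up to 3 with the smallest p in a comparison. For a called member the 5 probe sets most like it were named. Protein sequences were not used here. Alternatives were quantile normalization, median centring, other filters and offsets, eBayes without trend, and leaving out arrays. For list and marker genes, for pairs without arrays 28 and 37, and for member counts at an unadjusted p, they were added after seeing the data.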

Additional observations from a re-analysis of the deposited data

Results flagged for a closer look

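One value stood far from the rest of its group. Cidec in array 21 (chow line on chow) was at 9.95, while the next of the 7 animals was at 10.39, a gap of 0.57 of the group's whole range. The groups examined were 40, at a rule that flags about 1 group in 20 by chance. Array 21 is among the 4 arrays that stood apart, and its part in that position was not tested. Without it the own-diet difference of Cidec in the chow line was -0.02, against 0.07 with it, and neither was called.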

How the results depend on the processing

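The fall of Cidea in the HFD line and on average kept its direction and its call under quantile normalization, median centring, both other filters, both other offsets, eBayes without trend, without arrays 21, 22, 24 and 25, and with each array left out in turn. In the chow line it kept its direction, and the call was lost as given with that result. The number of members called in own diet was 0 in the chow line with no filter and without arrays 21, 22, 24 and 25, and was 2 in the HFD line and 2 on average with the dimmest 50% left out, where Pnpla2 joined Cidea. Leaving out 1 array gave 0 to 1 members called in the chow line, 1 to 2 in the HFD line and 1 to 3 on average. Without arrays 21, 22, 24 and 25 the change of Cidea minus Cideb in the chow line was -0.77 and not called. Pnpla2 minus G0s2 in the HFD line ranged from -0.63 to -0.35 with 1 array left out. Other changes of sign were of differences that were not called and lay near 0, and the cause was not tested. By quantile normalization they became in own diet of the HFD line Cidec 0.075 and G0s2 0.041, in the own-diet average Cidec 0.061, in grandpaternal diet on the HFD Cideb 0.11, Cidec 0.041, Plin4 0.0074, the dimmer Lipe 0.013 and the brighter Lipe 0.11, in the grandpaternal average Cidec 0.027 and Pnpla2 0.0019, and in the interaction Cidec 0.029 and the brighter Lipe 0.021. By median centring they became in own diet of the chow line Plin4 -0.00033, in own diet of the HFD line Cidec 0.052 and G0s2 0.019, in the own-diet average Cideb 0.0066 and Cidec 0.055, in grandpaternal diet on the HFD Cideb 0.098, Cidec 0.026, Plin4 0.071, the dimmer Lipe 0.11 and the brighter Lipe 0.12, in the grandpaternal average Cidec 0.029 and Pnpla2 0.0029, and in the interaction the brighter Lipe 0.045. Without arrays 21, 22, 24 and 25 they became in own diet of the chow line Cideb -0.016, in own diet of the HFD line Cidec 0.0040 and G0s2 0.010, in the own-diet average Cidec 0.0030 and Plin5 0.0051, in grandpaternal diet on chow Cidea 0.11 and Cidec -0.039, in grandpaternal diet on the HFD Cideb 0.13 and the dimmer Lipe 0.012, and in the interaction Cidec 0.0018. With 1 array left out, further signs changed. For own diet in the chow line the ranges were Cidec -0.020 to 0.12, Plin4 -0.039 to 0.062 and the dimmer Lipe -0.072 to 0.013. With own diet in the HFD line the ranges were Cidec -0.13 to 0.0040, Plin4 -0.0043 to 0.099 and G0s2 -0.22 to 0.090. For grandpaternal diet on chow the ranges were Cidea -0.17 to 0.10, Cidec -0.054 to 0.082 and the brighter Lipe -0.0047 to 0.17. With grandpaternal diet on the HFD the ranges were Cideb -0.094 to 0.071, the dimmer Lipe -0.080 to 0.0052 and the brighter Lipe -0.059 to 0.045. For the interaction the ranges were Plin4 -0.021 to 0.092. With own diet on average the ranges were Cideb -0.082 to 0.00013, Cidec -0.045 to 0.035, Plin5 -0.11 to 0.0014 and G0s2 -0.0097 to 0.14. For grandpaternal diet on average the ranges were Cidec -0.079 to 0.0011 and the brighter Lipe -0.0056 to 0.080. Over all tested probe sets, quantile normalization and centring called 89 and 90 in the chow line, against 50. For the HFD line they called 90 and 71, against 118, and 77 were called without arrays 21, 22, 24 and 25. Leaving out 1 array gave 34 to 56 calls in the chow line, 56 to 148 in the HFD line (56, 58, 65, 69 and 72 without arrays 42, 45, 37, 24 and 44), 214 to 468 on average against 312, 0 to 57 in the interaction, and 0 to 7 in the grandpaternal comparisons. No paired analysis was possible because no replicate number occurs in more than 1 group.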
